A study of Mus musculus with 15 samples.

Results

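Chromatin regulators were taken here as the genes whose symbols name them as histone demethylases, histone methyltransferases, deacetylases, sirtuins, polycomb repressive complex 2 (PRC2) core subunits, DNA methyltransferases, TET dioxygenases, nucleosome remodellers, ARID and bromodomain proteins or the acetyltransferases Ep300 and Crebbp. The symbols were matched by families of names, and 99 rows of the expression table matched. Kdm5c, Kdm5d and Kdm6a, which lie on the sex chromosomes, were left out, so 96 genes of 12798 remained. Hdac6 and Hdac8, which lie on the X chromosome, are still among them. The match used names and no measured value, but the members were chosen with earlier results of these data known. A name is not a function: some of the 96 act mainly outside chromatin, among them the mitochondrial sirtuins and Setd3, a methyltransferase of actin.

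The study followed mouse bone marrow progenitors on the way to innate lymphoid cells (ILCs) by bulk RNA-seq of 15 sorted libraries, and added progenitors without Tcf7, the gene of the transcription factor TCF-1. All mice had a C57BL/6 background, and all cells were lineage-negative, Kit+ and 2B4+. ILCP_WT (n = 2) was the ILC progenitor, a4b7+ Tcf7+ Thy1+ IL-7Ra+, with the genotype Tcf7EGFP/+. EILP_KO (n = 2) was the early innate lymphoid progenitor gate, a4b7+ Tcf7+ Thy1-, in mice of the genotype Tcf7EGFPnull/-. EILP_WT (n = 3) was the same gate in Tcf7EGFPnull/+ mice, so these control cells also carried 1 null allele. cEILP_WT (n = 3) and sEILP_WT (n = 2) divided that gate into Zbtb16high Flt3low and Zbtb16low Flt3high cells, with the genotype Tcf7GFP Zbtb16GFP. ALP_WT (n = 3) was the all-lymphoid progenitor, a4b7- Flt3high IL-7Ra+, with the genotype Tcf7EGFP/+. Every group thus carried a Tcf7 reporter allele, and the gate of the knockout cells was set by that reporter. Reporter strains differ between ILCP_WT and cEILP_WT and between sEILP_WT and ALP_WT, and EILP_WT carries a null allele that ILCP_WT and ALP_WT do not, so for these 4 comparisons stage and genotype cannot be told apart. ILCP_WT and ALP_WT share a genotype, as do cEILP_WT and sEILP_WT. Age and sex are not given, and the labels do not say that replicates came from separate animals, so p-values measure the spread between these libraries.

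The deposited values are on a log2 scale, brought to 1 shared distribution across libraries, and read depth is unknown. Each library has a lowest value, between -4.83 and -4.41, that 747 to 2575 genes share, and a gene with that value is said below to be at the floor of its library. Tcf7 was 6.97 and 7.65 in EILP_KO, below the 9.89 to 11.14 of EILP_WT and above the 1.91 to 2.64 of ALP_WT. Zbtb16 and Flt3 followed the sort gates. Thy1 was highest in ILCP_WT, at 4.99 and 4.85. It was also 2.46, 0.69 and 1.62 in EILP_WT, a Thy1- gate, and 1.46 in sEILP_WT replicate 1. In EILP_KO it was -1.30 and -1.28. Il7r was at the floor in EILP_WT replicate 1, and Cd244, which encodes 2B4, was 3.51 in ILCP_WT replicate 1 and 6.22 in replicate 2. EILP_WT replicate 3 had the most genes at its lowest value, 2575, followed by ILCP_WT replicate 2 with 2224 and ILCP_WT replicate 1 with 2124. Of the 96 chromatin regulators, 5, 4 and 5 were at the lowest value in these 3 libraries. The labels put each library in batch 1 or batch 2 without saying what a batch is. EILP_KO and ILCP_WT have 1 library in each batch, cEILP_WT and EILP_WT have 2 in batch 1 and 1 in batch 2, ALP_WT has 1 in batch 1 and 2 in batch 2, and both sEILP_WT libraries are in batch 1. In bulk libraries of sorted cells, fewer cells that express a gene and less RNA per cell cannot be told apart.

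Nucleosomes limit access to DNA, and chromatin regulators change that access. Remodellers of the SWI/SNF, ISWI and CHD families slide or evict nucleosomes with energy from ATP. Acetyltransferases and deacetylases set and remove histone acetyl marks, which bromodomain proteins read, while methyltransferases and demethylases do the same for histone methyl marks, PRC2 placing the repressive one on lysine 27 of histone H3. Dnmt1 copies DNA methylation after replication, Dnmt3a and Dnmt3b place it anew, and the TET enzymes oxidise it. In lymphoid progenitors, PRC2 and DNA methylation are known for closing off other lineage programs as cells commit.

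All 96 chromatin regulators passed the filter on low values (a log2 value of 0 or more in 2 libraries), which 12572 genes passed in all. Of the 96, 85 were never at the floor in any library, which is 88.5%, against 65.4% of all genes tested. The median distance between the highest and the lowest group mean was 1.16 log2 units for chromatin regulators and 1.71 for all genes tested. The median level on this scale was 6.22 for chromatin regulators and 4.75 for all genes tested, and 73 of the 96 stood above the latter. Whether the values are per length is not stated, so these levels do not rank genes by their expression. The part of level in the narrower range was not tested. Narrow ranges such as those of Brd2, Suz12 and Brd7, whose group means lay within 0.15, 0.24 and 0.31 log2 units, stood beside wide ranges in genes near the lowest value, such as Hdac9 with 7.97 and Hdac11 with 6.48.

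The largest number of changed chromatin regulators lay between ILCP_WT and ALP_WT, where 8 of 96 passed an adjusted p of 0.05 by limma, 3 higher (Kdm7a, Ezh1, Setd3) and 5 lower (Sirt3, Smarcc1, Dnmt1, Ezh2, Chd3os) in ILCP_WT. That is 8.33%, against 13.4 percent of all genes tested (5.56 percent higher and 7.86 percent lower). Between ILCP_WT and cEILP_WT, 7 passed (7.29%, against 7.41 percent of all genes, 2.69 percent higher and 4.72 percent lower), 1 higher (Smarca2) and 6 lower (Sirt3, Smarcc1, Arid1a, Brd3, Chd8, Kdm1a) in ILCP_WT. Between ILCP_WT and EILP_WT, 5 passed (5.21%, against 6.95 percent, 2.61 percent higher and 4.34 percent lower), with Smarca2 and Chd6 higher and Sirt3, Smarcc1 and Chd8 lower in ILCP_WT. Between EILP_WT and ALP_WT only Sirt3 passed, lower in EILP_WT (1.04%, against 3.21 percent of all genes, 1.71 percent higher and 1.5 percent lower). A limma F test over the 6 groups called 4 chromatin regulators, Sirt3, Smarcc1, Dnmt1 and Kdm7a (4.17%, against 8.36 percent). The shares of chromatin regulators called were thus at or below those of all genes in these comparisons. The comparisons with ILCP_WT share its 2 libraries, and those with ALP_WT share its 3.

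No chromatin regulator passed in the other comparisons. For EILP_KO against EILP_WT limma called 0 of 96, with 8 at an unadjusted p under 0.05, where 0.103 percent of all genes were called (0.0477 percent higher and 0.0557 percent lower) and 8.7 percent had such an unadjusted p. For sEILP_WT against ALP_WT it called 0, with 12 at an unadjusted p under 0.05, where 0.803 percent of all genes were called (0.493 percent higher and 0.31 percent lower) and 9.13 percent had such an unadjusted p. For cEILP_WT against sEILP_WT it called 0, with 5 at an unadjusted p under 0.05, where 0 percent of all genes were called and 5.15 percent had such an unadjusted p. In all, 14 chromatin regulators gave 21 called differences. All 21 had the same sign within batch 1 and within batch 2, and no overlap between the libraries of the compared groups. The calls were made from these same libraries, so neither is separate support for them.

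At an unadjusted p under 0.05 stood 17 of the 96 between ILCP_WT and ALP_WT (26.6 percent of all genes), 23 between ILCP_WT and cEILP_WT (22.2 percent of all genes), 18 between ILCP_WT and EILP_WT (22.3 percent of all genes), 13 between EILP_WT and ALP_WT (16.5 percent of all genes) and 20 in the F test (24.2 percent of all genes). Counts of genes whose libraries did not overlap between groups are given next. ILCP_WT lay wholly above ALP_WT in 16 of the 96 and wholly below in 15, where 22.4 and 21.4 percent of all genes did. It lay above cEILP_WT in 10 and below in 20 (22.1 and 19.9 percent of all genes), and above EILP_WT in 10 and below in 18 (14.8 and 17.5 percent). EILP_WT lay above ALP_WT in 6 and below in 6 (9.52 and 9.7 percent), and sEILP_WT lay above ALP_WT in 16 and below in 10 (14.7 and 14.7 percent).

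Markers of other cells moved with the ILCP_WT comparisons. The summed linear level of 7 T cell markers was 568 to 600 in ILCP_WT, with none at the floor throughout, against 369 to 496 in cEILP_WT, 166 to 358 in EILP_WT and 153 to 259 in ALP_WT, where Cd3e, Cd3g and Cd8b1 were at the floor in every library. That of 8 myeloid markers was 179 to 903 in ILCP_WT, where Cebpe was at the floor in both libraries, against 1237 to 2530 in cEILP_WT, 595 to 4047 in EILP_WT and 1173 to 2239 in ALP_WT. The 4 B cell markers summed to 80 to 84 in ILCP_WT, with Blnk at the floor, against 34 to 70 in cEILP_WT, 75 to 124 in EILP_WT and 220 to 456 in ALP_WT.

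For 7 mast cell and basophil markers the sums were 90 to 791 in ILCP_WT, 1126 to 2021 in cEILP_WT, 581 to 981 in EILP_WT and 15 to 52 in ALP_WT. For 8 dendritic cell markers they were 473 to 579 in ILCP_WT, with Siglech, Ly6d and Clec9a at the floor, 223 to 873 in cEILP_WT, 697 to 1721 in EILP_WT and 1060 to 1536 in ALP_WT. For 6 erythroid and megakaryocyte markers they were 30 to 100 in ILCP_WT, with Epor and Itga2b at the floor, 164 to 322 in cEILP_WT, 112 to 311 in EILP_WT and 10 to 129 in ALP_WT. The T cell sums were thus highest in ILCP_WT, and the B cell sums highest in ALP_WT. Their part in the differences of the chromatin regulators was not tested.

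Several counts rested on single libraries. The 7 between ILCP_WT and cEILP_WT became 2 without cEILP_WT replicate 1, 3 without cEILP_WT replicate 2 or replicate 3, and 4 without ILCP_WT replicate 1, while the 932 over all genes became 585, 548, 509 and 739. The 5 between ILCP_WT and EILP_WT became 2 without EILP_WT replicate 2 or replicate 3, while the 874 over all genes became 787 and 770. The genes called also changed where the size of a count held. Without ILCP_WT replicate 1 or replicate 2, some genes called against EILP_WT and ALP_WT were lost and others came in. These fits leave a single ILCP_WT library. The 8 between ILCP_WT and ALP_WT became 5 without ALP_WT replicate 2 (1687 and 1150 over all genes), the 1 between EILP_WT and ALP_WT became 0 without any 1 of its 6 libraries (404, and 177 to 380 over all genes), and the 4 over all groups became 2 without ALP_WT replicate 3 or cEILP_WT replicate 1 (1051, then 707 and 728 over all genes). The 0 between EILP_KO and EILP_WT became 1, the demethylase Kdm1b, without EILP_KO replicate 2, while the 13 over all genes became 54.

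**Figure D1:**
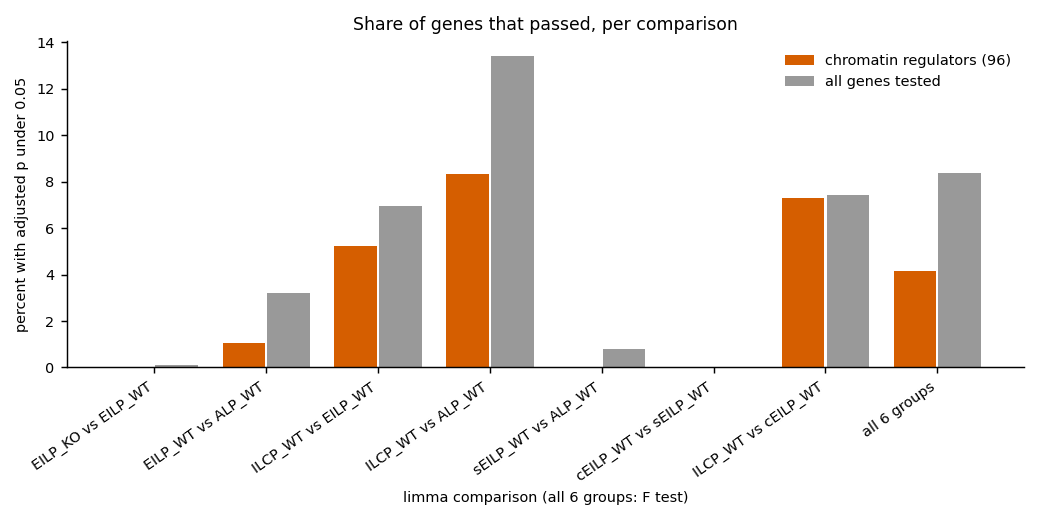
Percent of the 96 chromatin regulators (orange) and of all 12572 genes tested (grey) with an adjusted p under 0.05 by limma in each comparison and in the F test over all 6 groups. The chromatin regulators reach 8.33% between ILCP_WT and ALP_WT, where all genes reach 13.4 percent.

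Among the subunits of SWI/SNF, the ATP-driven complex that opens nucleosomal DNA, Smarcc1 was lower in ILCP_WT than in every other group. Smarcc1 (chr9:110117708-110240178 in mm10, plus strand) encodes a scaffold subunit. Its log2 values were 8.74, 8.59 and 8.42 in ALP_WT, 8.48 and 8.39 in sEILP_WT, 8.45, 8.61 and 9.12 in cEILP_WT, 7.88 and 8.51 in EILP_KO, 8.56, 8.77 and 8.40 in EILP_WT, and 7.04 and 7.43 in ILCP_WT. Both ILCP_WT libraries lay below each of the other 13. Smarcc1 fell by 1.53 in ILCP_WT against cEILP_WT (log2 fold change -1.53, SE 0.23, limma adjusted p = 0.00172), which is 2.88-fold. Against EILP_WT its log2 fold change in ILCP_WT was -1.38 (SE 0.23, adjusted p = 0.00334), and against ALP_WT it was -1.32 (SE 0.23, adjusted p = 0.00291). Each of these calls held without any 1 of the compared libraries. Its close relative Smarcc2 averaged 7.43 ± 0.24 in ILCP_WT (SD, n = 2) and 7.58 ± 0.32 in cEILP_WT (SD, n = 3) and did not pass.

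SWI/SNF has alternative motors, Smarca2 and Smarca4. Smarca2 was 7.46, 6.52 and 6.71 in ALP_WT, 6.02 and 5.48 in sEILP_WT, 5.67, 6.04 and 5.46 in cEILP_WT, 5.14 and 6.41 in EILP_KO, 6.53, 5.27 and 5.39 in EILP_WT, and 7.33 and 7.76 in ILCP_WT. The ILCP_WT libraries were above every EILP library, and ALP_WT overlapped ILCP_WT. Smarca2 rose in ILCP_WT against cEILP_WT by 1.84 log2 units (SE 0.48, adjusted p = 0.0381), or 3.58-fold, and against EILP_WT by 1.83 (SE 0.48, adjusted p = 0.0398). Against ALP_WT the difference was 0.63 (SE 0.48, adjusted p = 0.44) and did not pass. The call against cEILP_WT was lost without any 1 of the 5 compared libraries (1.54 to 2.18, adjusted p 0.0653 to 0.188), and that against EILP_WT without EILP_WT replicate 2 or 3 or either ILCP_WT library (adjusted p 0.0764 to 0.195). Smarca4 averaged 8.37 ± 0.24 in ILCP_WT (SD, n = 2), 8.30 ± 0.27 in cEILP_WT (SD, n = 3) and 7.87 ± 0.32 in EILP_WT (SD, n = 3), with log2 fold changes of 0.03 (SE 0.23) and 0.46 (SE 0.23) for ILCP_WT against cEILP_WT and EILP_WT that did not pass.

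Arid1a encodes the large subunit that helps to recruit the BAF form of SWI/SNF to DNA. It was 5.88 and 5.62 in ILCP_WT and 6.77, 7.01 and 7.09 in cEILP_WT, with no overlap. Arid1a fell by 1.22 on the log2 scale in ILCP_WT against cEILP_WT (SE 0.29, adjusted p = 0.0285). The call was lost without any 1 of the 5 compared libraries (log2 fold change -1.43 to -1.03, adjusted p 0.0502 to 0.14). The ALP_WT libraries, at 5.83, 6.28 and 6.45, overlapped those of ILCP_WT. Of the 13 SWI/SNF subunits in this set, 1 rose and 2 fell between ILCP_WT and cEILP_WT, 1 rose and 1 fell between ILCP_WT and EILP_WT, and 1 fell between ILCP_WT and ALP_WT. Over all genes, 2.69 percent rose and 4.72 percent fell in the first of these comparisons, 2.61 and 4.34 percent in the second, and 5.56 and 7.86 percent in the third. Among the 10 that did not pass against cEILP_WT, Smarce1, a DNA-binding subunit, had the values 7.48 and 7.08 in ILCP_WT and 7.78, 7.72 and 7.97 in cEILP_WT (log2 fold change -0.53, SE 0.17, adjusted p = 0.0848). The groups did not overlap in Smarce1, as was so for 19.9 percent of all genes in that direction.

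**Figure D2:**
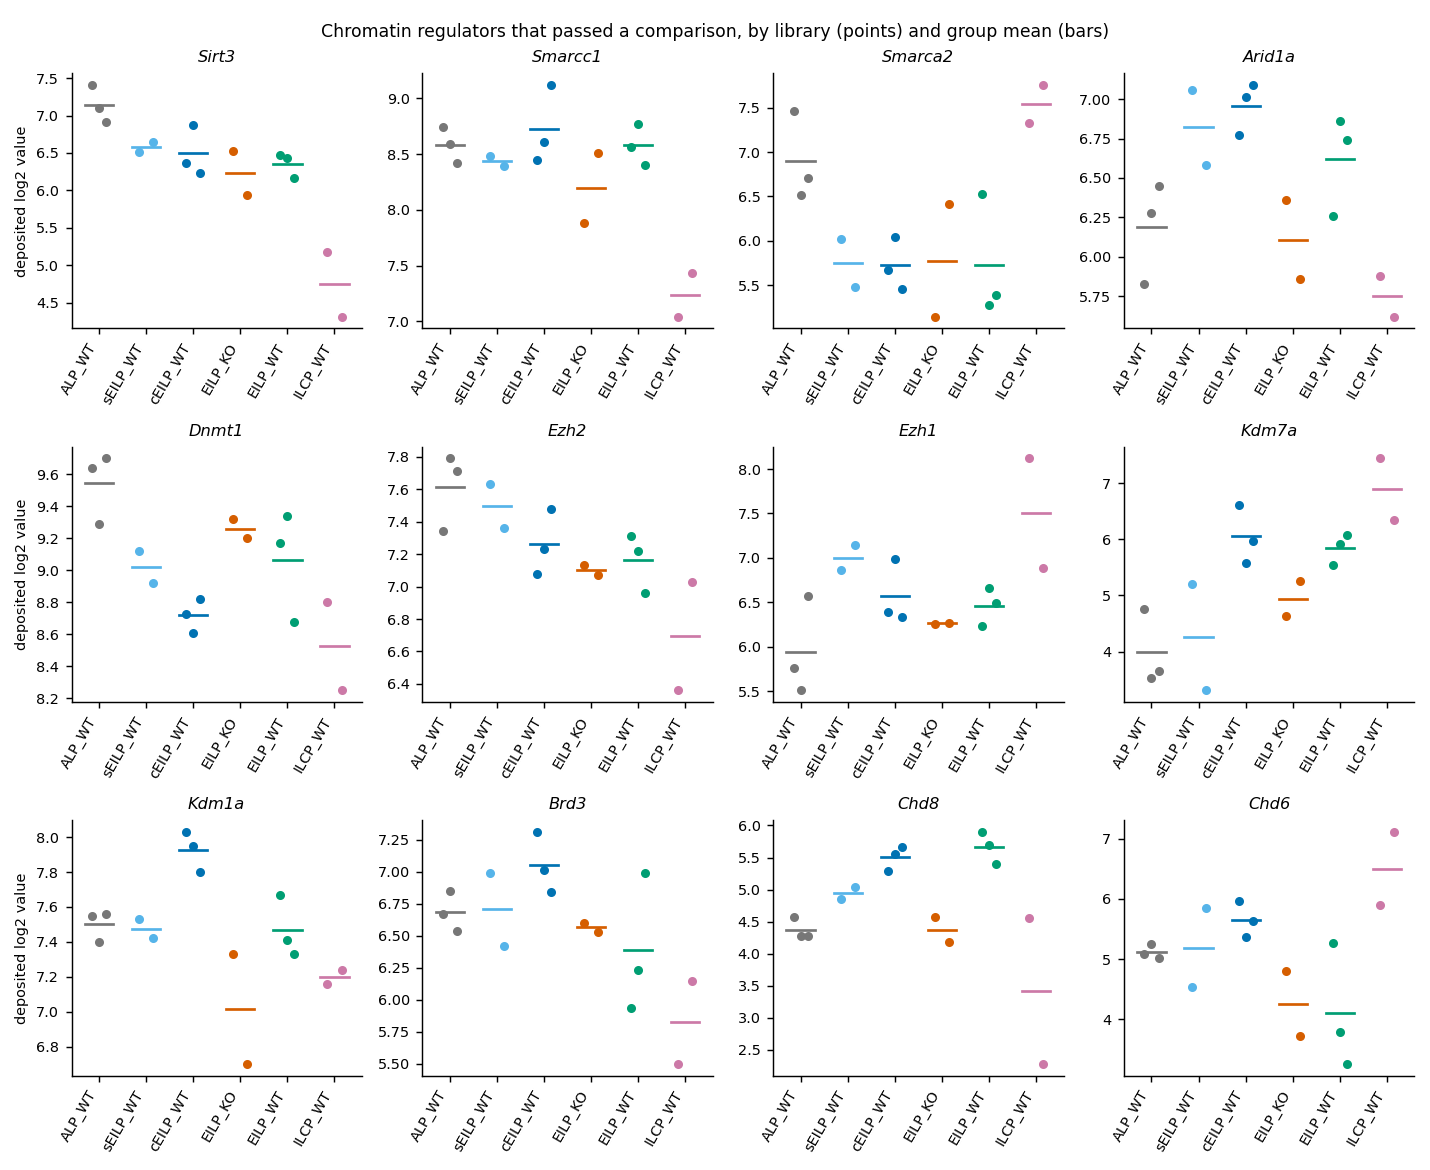
Deposited log2 value of 12 chromatin regulators (y axis, a scale of its own in each panel) in each of 15 libraries, by group (x axis); points are libraries and horizontal bars are group means. Both ILCP_WT points lie below all others for Sirt3 and Smarcc1, whereas both ILCP_WT points of Smarca2, at 7.33 and 7.76, lie above all EILP points, which reach 6.53.

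Outside SWI/SNF, Smarca5, the ISWI motor that spaces nucleosomes, averaged 8.65 ± 0.45 in ILCP_WT (SD, n = 2) and 9.12 ± 0.04 in EILP_WT (SD, n = 3), and did not pass (log2 fold change -0.52, SE 0.20, adjusted p = 0.15). The CHD family holds remodellers with a chromodomain that binds methylated histones. Chd8, best known for its link to beta-catenin and to neural development, was 4.58, 4.27 and 4.27 in ALP_WT, 4.85 and 5.04 in sEILP_WT, 5.29, 5.56 and 5.66 in cEILP_WT, 4.57 and 4.18 in EILP_KO, 5.90, 5.70 and 5.40 in EILP_WT, and 4.56 and 2.28 in ILCP_WT. It was thus highest in cEILP_WT and EILP_WT, and the 2 ILCP_WT libraries differed widely. Chd8 fell by 2.15 on the log2 scale in ILCP_WT against EILP_WT (SE 0.52, adjusted p = 0.0292) and by 1.99 against cEILP_WT (SE 0.52, adjusted p = 0.0402). Without ILCP_WT replicate 2 the differences were -1.17 (adjusted p = 0.183) and -1.01 (adjusted p = 0.258), so their size rests on that library. The calls were also lost without any 1 EILP_WT library (adjusted p 0.0509 to 0.074) or any 1 cEILP_WT library (adjusted p 0.0599 to 0.16).

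Chd6, a remodeller linked to stress responses, was 5.89 and 7.11 in ILCP_WT and 5.26, 3.79 and 3.26 in EILP_WT. It rose by 2.44 log2 units in ILCP_WT (SE 0.64, adjusted p = 0.0404). Without EILP_WT replicate 3 the difference was 1.95 (adjusted p = 0.122), without EILP_WT replicate 2 it was 2.24 (adjusted p = 0.0899), and without ILCP_WT replicate 2 it was 1.60 (adjusted p = 0.277). Chd4, the motor of the NuRD deacetylase complex, did not pass anywhere, and its group means lay within 0.41 log2 units of each other. Chd1, which is linked to transcribing chromatin, was 7.11 and 7.62 in ILCP_WT and 5.23, 5.69 and 6.85 in ALP_WT (log2 fold change 1.48, SE 0.48, adjusted p = 0.061), with no overlap but no call.

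Chd3os, listed as an antisense transcript of Chd3, was 3.35 and -4.54 in ILCP_WT, the second being the lowest value, and 5.44, 4.69 and 5.27 in ALP_WT. Its fitted log2 fold change of -6.29 (SE 1.83, adjusted p = 0.0407) passed and turned on the library at the lowest value: without ILCP_WT replicate 2 it was -3.44 (adjusted p = 0.386). The call was also lost without ALP_WT replicate 2 (-5.95, adjusted p = 0.107) or ALP_WT replicate 3 (-5.66, adjusted p = 0.119). The library kits are not stated to keep strand, so reads from any stretch that Chd3os and Chd3 share cannot be told apart. In EILP_WT replicate 2, Chd3os was 4.02 and Chd3 was -2.36. In EILP_WT replicate 3 they were -4.41 and 5.53, so the rows did not move together there. Chd3 itself was 5.48 and 5.81 in ILCP_WT and 4.0, 5.60 and 4.30 in ALP_WT and did not pass.

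Of the 5 genes grouped here as BET and other bromodomain genes, Brd3 was the only one called. Brd3 belongs with Brd2 to the BET family, which ties acetylated chromatin to transcription. It was 5.5 and 6.15 in ILCP_WT and 7.31, 7.01 and 6.84 in cEILP_WT, with no overlap, and fell by 1.27 on the log2 scale (SE 0.32, adjusted p = 0.0331). The call was lost without cEILP_WT replicate 1 (-1.10, adjusted p = 0.1), cEILP_WT replicate 2 (-1.25, adjusted p = 0.0849) or ILCP_WT replicate 1 (-1.0, adjusted p = 0.217), and under cyclic loess scaling (-1.14, adjusted p = 0.0566). Brd2 averaged 8.18 ± 0.36 in ILCP_WT (SD, n = 2) and 8.15 ± 0.27 in cEILP_WT (SD, n = 3). Brd2 did not pass, and whether Brd3 differed from it in its change was not tested. Brd8, a subunit of an acetyltransferase complex, was 7.16, 7.08 and 6.81 in EILP_WT and 8.03, 7.72 and 7.52 in ALP_WT, without overlap (log2 fold change -0.82, SE 0.25, adjusted p = 0.105), and did not pass. The acetyltransferases Ep300 and Crebbp, coactivators that place the acetyl mark of active enhancers, had group means within 0.49 and 0.48 log2 units and passed in none of the 7 comparisons.

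**Figure D3:**
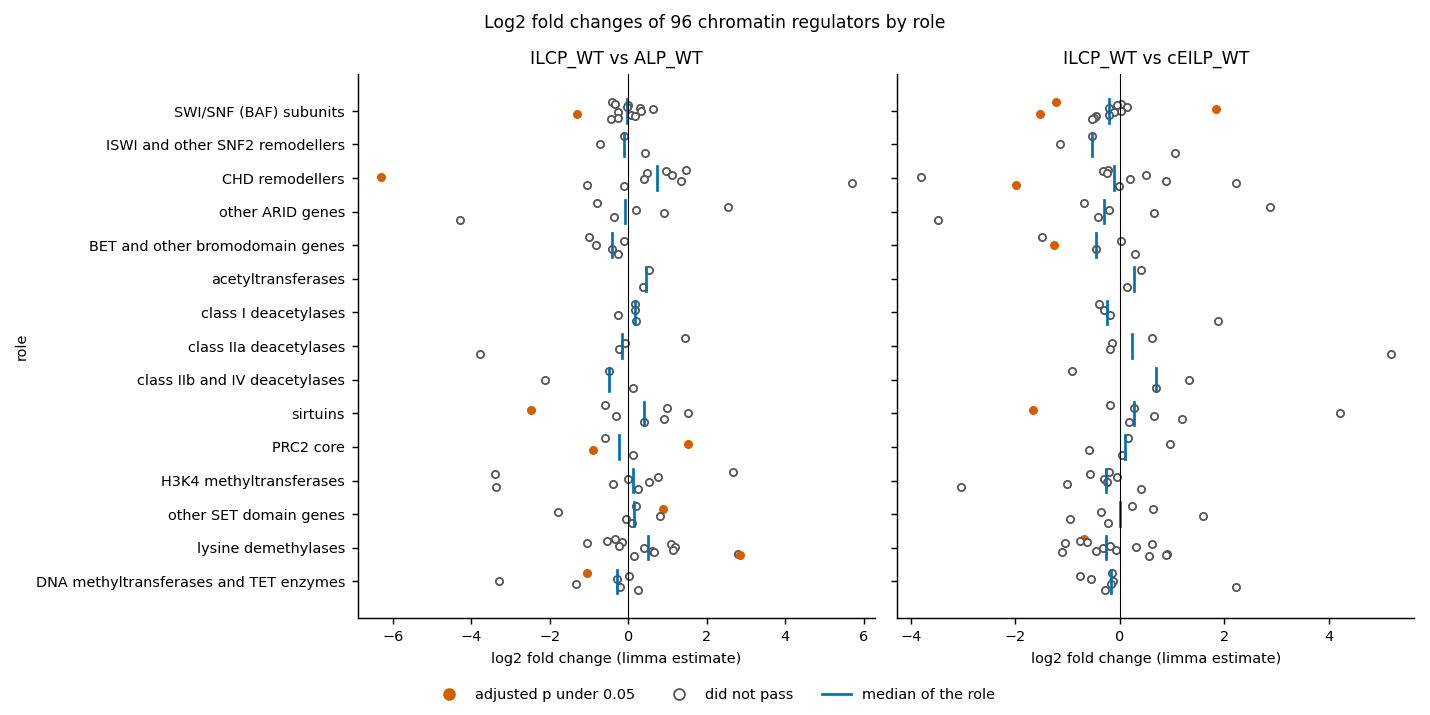
Log2 fold change estimated by limma (x axis) of the 96 chromatin regulators by role (rows) for ILCP_WT against ALP_WT (left) and ILCP_WT against cEILP_WT (right); filled points passed, open points did not, and bars are medians over a role. The medians of the roles lie between -0.49 and 0.72 on the left and between -0.54 and 0.68 on the right, and the 8 and 7 genes that passed are spread over several roles on both sides of 0.

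Among the enzymes that remove acetyl groups, Sirt3 had the smallest F test p of all 96 genes (limma adjusted p = 0.00116). Sirt3 (chr7:140863666-140882309 in mm10, minus strand) is a sirtuin that acts mainly on mitochondrial proteins. Its log2 values were 7.41, 7.10 and 6.92 in ALP_WT, 6.51 and 6.64 in sEILP_WT, 6.37, 6.88 and 6.23 in cEILP_WT, 6.53 and 5.94 in EILP_KO, 6.47, 6.43 and 6.16 in EILP_WT, and 5.18 and 4.31 in ILCP_WT. The ALP_WT libraries were the highest, the EILP libraries lay between, and both ILCP_WT libraries were the lowest, with no overlap between these 3 levels. Sirt3 fell by 2.48 in ILCP_WT against ALP_WT (SE 0.24, adjusted p = 5.47e-05), or 5.58-fold, with differences of -2.24 within batch 1 and -2.70 within batch 2. In ILCP_WT it fell by 1.67 against cEILP_WT (SE 0.24, adjusted p = 0.00136) and by 1.53 against EILP_WT (SE 0.24, adjusted p = 0.00249). These 3 calls held without any 1 of the compared libraries. In EILP_WT it fell by 0.95 against ALP_WT (SE 0.22, adjusted p = 0.0371), and this call was lost without any 1 of the 6 compared libraries (-1.06 to -0.90, adjusted p 0.0725 to 0.121).

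None of the other 6 sirtuins passed in any of the 7 comparisons. Sirt1, a nuclear deacetylase, was 6.71 and 6.34 in EILP_KO and 5.30, 5.27 and 4.49 in EILP_WT, without overlap and without a call (log2 fold change 1.48, adjusted p = 0.601). None of the 4 class I deacetylases, the catalytic members of most corepressor complexes, passed. Hdac1 averaged 8.69 ± 0.04 in EILP_WT and 8.22 ± 0.30 in ALP_WT (SD, n = 3 each), a difference of 0.49 (SE 0.16, adjusted p = 0.127). Hdac2 averaged 8.57 ± 0.21 in EILP_WT and 8.26 ± 0.20 in ALP_WT (SD, n = 3 each), a difference of 0.42 (SE 0.20, adjusted p = 0.319). Hdac8 reached its lowest value of 1.37 in cEILP_WT replicate 1 and was between 3.82 and 5.35 in the other libraries.

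Among the remaining deacetylases, Hdac9 and Hdac11 had the widest spread, and none passed. Hdac9, a class IIa deacetylase that binds MEF2 factors, was 5.11, 6.13 and 5.85 in ALP_WT, 4.72 and 3.92 in sEILP_WT, and 2.83 in cEILP_WT replicate 1 and at the floor in the other cEILP_WT libraries. In EILP_KO it was 4.99 and -0.08, in EILP_WT 4.97, 5.02 and the floor, and in ILCP_WT 0.59 and 4.24. All ALP_WT libraries were thus above all others, and no comparison passed (EILP_WT against ALP_WT, log2 fold change -4.83, SE 2.47, adjusted p = 0.365). Hdac11, the class IV deacetylase, was at the floor in both EILP_KO libraries and was 1.92, 2.40 and 1.08 in ALP_WT and 2.35 and 1.42 in sEILP_WT. In EILP_WT it was at the floor in replicate 1 and -1.28 and 2.79 in the others, so that EILP_KO and EILP_WT overlapped.

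Of the 4 PRC2 core genes, the alternative catalytic subunits Ezh2 and Ezh1 passed, both in ILCP_WT against ALP_WT alone of the 7 comparisons. Ezh2 is the subunit typical of dividing cells and Ezh1 that of resting ones, and both place the H3K27 methyl mark together with Eed and Suz12. Ezh2 was 6.36 and 7.03 in ILCP_WT and 7.34, 7.79 and 7.71 in ALP_WT. Ezh1 was 8.12 and 6.89 in ILCP_WT and 5.76, 5.51 and 6.57 in ALP_WT. Neither gene overlapped between the groups, and the 2 moved in opposite directions: Ezh2 fell by 0.89 (SE 0.23, adjusted p = 0.0222) and Ezh1 rose by 1.52 (SE 0.39, adjusted p = 0.0218), which are 1.85-fold and 2.87-fold. ILCP_WT replicate 1 carried much of both differences. Without it, the log2 fold change was -0.62 (adjusted p = 0.172) for Ezh2 and 0.94 (adjusted p = 0.203) for Ezh1. The Ezh2 call was also lost without ALP_WT replicate 2 (-0.83, adjusted p = 0.0664) or replicate 3 (-0.87, adjusted p = 0.061), and the Ezh1 call without ALP_WT replicate 1 (1.29, adjusted p = 0.0898) or replicate 2 (1.34, adjusted p = 0.0689). Eed averaged 6.51 ± 0.76 in ILCP_WT (SD, n = 2) and 7.09 ± 0.14 in ALP_WT (SD, n = 3), and Suz12 averaged 7.28 ± 0.07 and 7.17 ± 0.16 in the same groups. Neither passed.

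Dnmt1, the methyltransferase that maintains DNA methylation, fell alongside Ezh2. It was 9.64, 9.29 and 9.70 in ALP_WT, 9.12 and 8.92 in sEILP_WT, 8.73, 8.61 and 8.82 in cEILP_WT, 9.32 and 9.20 in EILP_KO, 9.17, 9.34 and 8.68 in EILP_WT, and 8.80 and 8.25 in ILCP_WT. The group mean of Dnmt1 was highest in ALP_WT, whose libraries overlapped those of EILP_KO and EILP_WT, and its lowest library was ILCP_WT replicate 2. In ILCP_WT it fell by 1.06 on the log2 scale against ALP_WT (SE 0.19, adjusted p = 0.00366), or 2.08-fold, and without ILCP_WT replicate 2 the difference was -0.87 (adjusted p = 0.0548).

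Cell cycle genes moved the same way as Dnmt1 and Ezh2 in this comparison. Of 20 cell cycle genes, 8 fell and 0 rose in ILCP_WT against ALP_WT, where 7.86 percent of all genes fell and 5.56 percent rose, with a median log2 fold change of -0.82, against -0.09 over all genes. Their summed linear level was 9489 to 10336 in ALP_WT, 7448 to 7747 in sEILP_WT, 5856 to 6930 in cEILP_WT, 8391 to 8546 in EILP_KO, 5286 to 7456 in EILP_WT and 5343 to 6129 in ILCP_WT, and 0 of the 20 were at the floor throughout any group. In ILCP_WT against cEILP_WT their median was 0.40, with 2 higher and 2 lower, beside log2 fold changes of -0.60 (SE 0.23) for Ezh2 and -0.15 (SE 0.19) for Dnmt1 that did not pass. The part of the cell cycle in the Dnmt1 and Ezh2 differences was not tested.

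Promoters of these 3 genes are shown to set the alternative subunits and Dnmt1 side by side. Ezh2 and Dnmt1 were the genes of the 73 with a promoter in the table whose windows held letters of the E2F motif. The called genes that fell without such letters include Sirt3, Smarcc1, Arid1a, Brd3, Chd8 and Kdm1a. The sequences are the RefSeq windows of build GRCm38.p6 that span 250 bases before to 50 bases after a start, all on the minus strand and written 5′ to 3′. The Ezh2 window is chr6:47594981-47595280, the Dnmt1 window is chr9:20952574-20952873, chosen from the 3 windows of that gene because it holds the E2F letters, which the others lack, and the Ezh1 window is chr11:101226414-101226713. Capitals mark matches to TTTGGCGC or TTTCGCGC on either strand.
Ezh2: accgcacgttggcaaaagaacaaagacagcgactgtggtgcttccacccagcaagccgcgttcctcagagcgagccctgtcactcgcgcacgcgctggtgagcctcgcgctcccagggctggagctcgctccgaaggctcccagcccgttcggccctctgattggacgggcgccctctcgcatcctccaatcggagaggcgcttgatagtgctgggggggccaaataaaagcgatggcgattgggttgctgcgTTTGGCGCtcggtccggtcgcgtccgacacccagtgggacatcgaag
Dnmt1: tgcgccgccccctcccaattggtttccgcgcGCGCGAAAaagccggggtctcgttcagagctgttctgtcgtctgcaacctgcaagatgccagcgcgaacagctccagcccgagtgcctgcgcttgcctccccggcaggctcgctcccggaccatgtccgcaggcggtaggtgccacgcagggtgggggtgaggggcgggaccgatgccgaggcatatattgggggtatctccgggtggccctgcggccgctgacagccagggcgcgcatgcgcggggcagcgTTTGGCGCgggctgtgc
Ezh1: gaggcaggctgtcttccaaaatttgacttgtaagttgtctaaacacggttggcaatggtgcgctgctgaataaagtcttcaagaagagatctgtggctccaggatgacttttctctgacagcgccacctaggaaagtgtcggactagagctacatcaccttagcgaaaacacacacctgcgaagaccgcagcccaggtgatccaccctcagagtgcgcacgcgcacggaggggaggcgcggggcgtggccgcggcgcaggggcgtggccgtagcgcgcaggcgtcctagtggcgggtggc
Another Dnmt1 window, chr9:20959839-20960138, holds the TCF/LEF letters. The E2F letters were found in 2 of the 73 (2.74%) and in 0.929% of 27025 genes. The TCF/LEF letters CTTTGA, searched on both strands, were found in 7 of the 73 (9.59%) and in 18.2% of all genes. A match of letters is a description of the sequence and not a site.

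The enzymes that place new DNA methylation, and those that oxidise it, did not pass in any comparison. Dnmt3a averaged 7.02 ± 0.02 in ILCP_WT (SD, n = 2) and 7.86 ± 0.15 in cEILP_WT (SD, n = 3), without overlap (log2 fold change -0.77, SE 0.31, adjusted p = 0.167). Dnmt3b averaged 5.99 ± 0.92 in ILCP_WT (SD, n = 2) and 6.52 ± 0.60 in cEILP_WT (SD, n = 3). Dnmt3l, a cofactor without catalytic activity, was at the floor in 12 of 15 libraries and was 1.57 and 0.41 in ALP_WT replicates 2 and 3 and 1.47 in EILP_KO replicate 2. Tet1 was 6.33, 5.38 and 5.48 in ALP_WT and 4.09 and 5.01 in ILCP_WT. Tet2 was 4.99 and 5.0 in ILCP_WT and 3.62, 4.09 and 0.83 in cEILP_WT (log2 fold change 2.23, SE 0.90, adjusted p = 0.168). Tet3 averaged 5.55 ± 0.50 in ILCP_WT (SD, n = 2) and 5.85 ± 0.47 in cEILP_WT (SD, n = 3).

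Of the 14 lysine demethylases, Kdm7a rose in ILCP_WT against ALP_WT. Kdm7a (chr6:39136623-39206789 in mm10, minus strand) removes repressive methyl marks from histone H3. It was 4.76, 3.54 and 3.66 in ALP_WT, 5.21 and 3.31 in sEILP_WT, 6.61, 5.58 and 5.97 in cEILP_WT, 4.64 and 5.25 in EILP_KO, 5.55, 5.91 and 6.08 in EILP_WT, and 7.44 and 6.35 in ILCP_WT. ALP_WT lay below EILP_WT, cEILP_WT and ILCP_WT without overlap, and both EILP_KO libraries lay below all 3 EILP_WT libraries. Kdm7a rose by 2.85 log2 units in ILCP_WT against ALP_WT (SE 0.60, adjusted p = 0.00901), or 7.23-fold, and without ILCP_WT replicate 1 by 2.40 (adjusted p = 0.0735). In EILP_WT against ALP_WT it was 1.76 log2 units higher (SE 0.55, adjusted p = 0.116) and in EILP_KO against EILP_WT 0.85 lower (log2 fold change -0.85, SE 0.60, adjusted p = 0.719), and neither passed.

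Kdm1a, a demethylase of the activating H3K4 mark that works in corepressor complexes, was 7.16 and 7.24 in ILCP_WT and 8.03, 7.95 and 7.80 in cEILP_WT. It fell by 0.69 on the log2 scale in ILCP_WT (SE 0.18, adjusted p = 0.0408), or 1.61-fold, and the call was lost without any 1 of the 5 compared libraries (-0.85 to -0.52, adjusted p 0.0508 to 0.267) and under cyclic loess scaling (-0.54, adjusted p = 0.1). Kdm2b, which brings a polycomb complex to unmethylated CpG islands, was 6.11 and 4.95 in ILCP_WT and 6.44, 6.81 and 6.63 in cEILP_WT (log2 fold change -1.06, SE 0.34, adjusted p = 0.0848). Kdm5b, a demethylase of H3K4, was 7.36 and 8.17 in ILCP_WT and 9.02, 8.66 and 8.94 in cEILP_WT (log2 fold change -1.10, SE 0.48, adjusted p = 0.196). Kdm4c was 6.14 and 6.36 in ILCP_WT and 5.07, 5.24 and 5.07 in ALP_WT (log2 fold change 1.13, SE 0.39, adjusted p = 0.0784). The groups did not overlap in any of these 3 comparisons, and none passed.

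Of the 6 other SET domain genes, those outside the PRC2 core and the group of H3K4 methyltransferases, Setd3 changed. Setd3 was 7.59 and 8.03 in ILCP_WT and 6.98, 6.62 and 7.08 in ALP_WT, and rose by 0.89 log2 units (SE 0.26, adjusted p = 0.0389). Without ILCP_WT replicate 2 the difference was 0.48 (adjusted p = 0.396), without ALP_WT replicate 1 it was 0.85 (adjusted p = 0.103) and without ALP_WT replicate 2 it was 0.78 (adjusted p = 0.111). None of the 8 genes grouped here by name as H3K4 methyltransferases, the enzymes of the COMPASS complexes among them, passed. Kmt2a, known for its role in blood stem cells, was -1.83, 5.09 and 4.10 in ALP_WT and between 2.93 and 5.69 in every other library, so its mean in ALP_WT rests on replicate 1.

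The comparison of EILP_KO with EILP_WT asked what the loss of Tcf7 does to these genes at the same gate. The median log2 fold change of the 96 genes was -0.08, against 0.04 over all genes. In 7 genes both EILP_KO libraries lay above and in 11 below all EILP_WT libraries, where 9.59 percent and 9.62 percent of all genes did so. The smallest unadjusted p-values belonged to Kdm1b, Hdac3 and Chd2, and none passed. Kdm1b, a demethylase of H3K4, was 0.48 and 5.56 in EILP_KO and 6.5, 5.27 and 6.13 in EILP_WT (log2 fold change -3.11, SE 1.09, limma adjusted p = 0.484), so the difference lies in EILP_KO replicate 1. Hdac3, the deacetylase of the NCoR corepressor, was 6.88 and 7.30 in EILP_KO and 7.48, 7.44 and 8.22 in EILP_WT (log2 fold change -0.68, SE 0.24, adjusted p = 0.495). Chd2 was 4.45 and 5.48 in EILP_KO and 6.25, 6.33 and 5.97 in EILP_WT (log2 fold change -1.23, SE 0.47, adjusted p = 0.535).

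For some core genes the knockout comparison gave narrow intervals, which are not adjusted for the number of genes. Even a bound of 1 log2 unit leaves room for changes as large as some called elsewhere here. The 95% interval of the log2 fold change lay within 1 log2 unit on either side of 0 for 30 of the 96 genes and within 2 units for 66. It was -0.53 to 0.21 for Hdac1, -0.44 to 0.51 for Chd4, -0.41 to 0.53 for Brd2, -0.59 to 0.40 for Ezh2, -0.18 to 0.65 for Dnmt1 and -0.36 to 0.63 for Smarca4. It was wide for the TET enzymes, at -3.80 to 0.09 for Tet1 and -0.51 to 3.42 for Tet2. Markers of other cells moved with this comparison. All 8 myeloid markers had positive log2 fold changes, with none called, and their summed linear level was 4443 to 5603 in EILP_KO and 595 to 4047 in EILP_WT, with 0 of 8 at the floor throughout either group. All 8 dendritic cell markers were positive with a median of 1.45, and 6 of 7 mast cell and basophil markers with a median of 0.88. None of 7 T cell markers was positive, with a median of -2.24, and Cd3e, Cd3d, Cd4, Cd8b1 and Bcl11b were at the floor throughout EILP_KO. Of 4 B cell markers 2, and of 6 erythroid and megakaryocyte markers 3, were positive. None of these markers was called by limma. All 20 cell cycle genes were positive too, with a median of 0.46 and none called. The part of any of these in the values above was not tested.

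**Figure D4:**
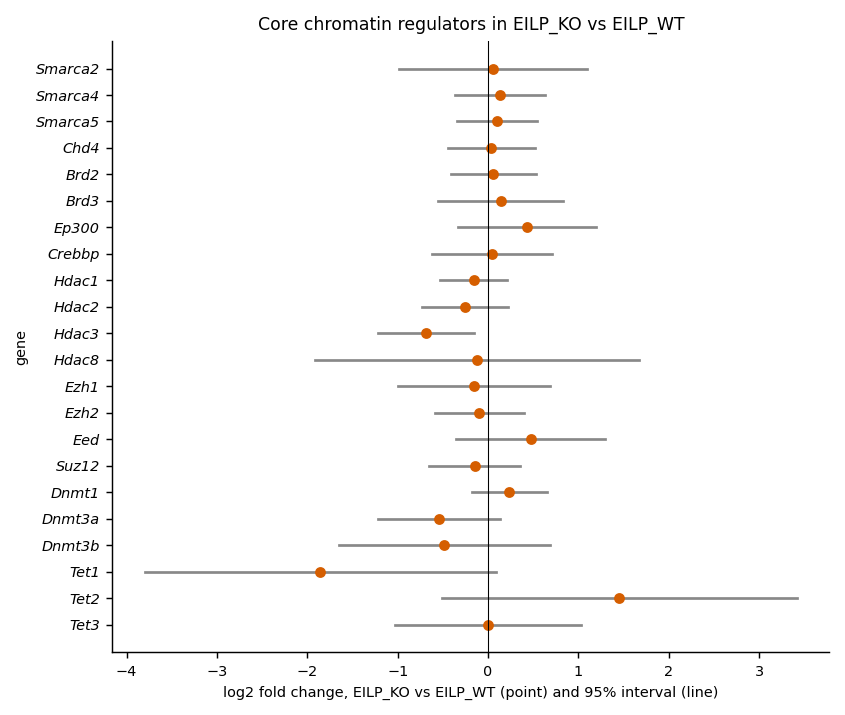
Log2 fold change (x axis, limma estimate) of 22 core chromatin regulators (rows) in EILP_KO against EILP_WT, with the point as the estimate and the line as its 95% interval. Most intervals include 0, the interval of Hdac3 lies below 0 before adjustment, and those of Tet1, Tet2 and Hdac8 are the widest.

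The split of the EILP gate gave no call among the chromatin regulators. In sEILP_WT against ALP_WT the smallest p-values belonged to Sirt3 (log2 fold change -0.89, SE 0.26, adjusted p = 0.229), Dnmt1 (-0.68, SE 0.20, adjusted p = 0.26) and Kdm4c (1.23, SE 0.42, adjusted p = 0.353), and the libraries of the 2 groups did not overlap in any of the 3. In cEILP_WT against sEILP_WT they belonged to Kdm7a (1.89, SE 0.61, adjusted p = 0.715), Tet3 (1.42, SE 0.48, adjusted p = 0.732) and Kdm1a (0.51, SE 0.19, adjusted p = 0.788). Tet3 was 5.36, 5.89 and 6.31 in cEILP_WT and 4.68 and 4.26 in sEILP_WT. In 16 genes all cEILP_WT libraries lay above and in 9 below both sEILP_WT libraries, where 11.5 percent and 13.8 percent of all genes did so. The sEILP_WT libraries are in batch 1 alone.

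Partner genes outside the rule were read from a list of 120 names in 9 groups, of which 106 were tested. In ILCP_WT against ALP_WT 3 of the 106 rose and 10 fell, in ILCP_WT against cEILP_WT 1 rose and 8 fell, in ILCP_WT against EILP_WT 2 rose and 5 fell, and in EILP_WT against ALP_WT 1 rose and 1 fell. These 13, 9, 7 and 2 of 106 stand beside 13.4, 7.41, 6.95 and 3.21 percent of all genes in the same comparisons, so their shares were near those of all genes. Limma called 0 in the other 3 comparisons. Beside PRC2, the accessory subunit Jarid2 averaged 7.70 ± 0.72 in ILCP_WT (SD, n = 2) and 6.52 ± 0.59 in ALP_WT (SD, n = 3). Its log2 fold change was 1.30 (SE 0.27, limma adjusted p = 0.0082). Jarid2 was already higher in EILP_WT, at 7.59 ± 0.47 (SD, n = 3), by 1.30 against ALP_WT (SE 0.24, limma adjusted p = 0.0134). In ILCP_WT against ALP_WT, Mtf2 fell by 1.07 (SE 0.25, adjusted p = 0.0166) and Rbbp4 by 0.50 (SE 0.13, adjusted p = 0.0254). Of 8 NuRD genes, 1 rose and 3 fell in ILCP_WT against cEILP_WT: Mbd2, a reader of methylated DNA, rose by 1.10 (SE 0.22, adjusted p = 0.0108), and Mta1 (log2 fold change -1.16), Mta3 (-0.76) and Cdk2ap1 (-0.97) fell.

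Among the partners linked to DNA methylation and to other methyl marks were several that fell in ILCP_WT against ALP_WT. Idh2, a mitochondrial enzyme whose product is a cofactor of TET enzymes and many demethylases, averaged 7.43 ± 0.12 in ILCP_WT (SD, n = 2) and 9.44 ± 0.16 in ALP_WT (SD, n = 3), and fell by 2.01 on the log2 scale (SE 0.15, adjusted p = 8.19e-06). Prmt1, the main arginine methyltransferase, averaged 7.28 ± 0.00 in ILCP_WT (SD, n = 2) and 8.21 ± 0.08 in ALP_WT (SD, n = 3) and fell by 0.92 (SE 0.14, adjusted p = 0.00136). Suv39h1, which places the H3K9 mark of heterochromatin, fell by 1.10 (SE 0.25, adjusted p = 0.013). Its relative Suv39h2 was at the floor in both ILCP_WT libraries and averaged 4.10 ± 0.42 in ALP_WT (SD, n = 3). Uhrf1, which guides Dnmt1 to replicated DNA, fell by 1.08 in EILP_WT against ALP_WT (SE 0.23, adjusted p = 0.0261).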

How the data were processed

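RNA of sorted bone marrow cells was amplified with SMARTer chemistry for small inputs and tagmented with Nextera XT, per the labels' protocols. Tools listed in the submitters' processing notes are STAR 2.5.2b, bcl2fastq 2.17, limma (no version) and RSEM 1.2.23, with build mm10. The annotation is not given in the sources used here. The authors deposited 1 table of log2 values for 12798 genes in 15 libraries. The linear values sum to between 998697 and 999292 in each library and the libraries share 1 distribution, which was read from the values. Whether they are per length is not stated, so levels of single genes are not compared with each other, and the median levels given above carry that limit. A further 24 columns have no name and no values and were left aside. Without counts, depth is unknown. Quantile normalization forces a shared distribution and would hide a change in total RNA.

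The 12572 genes that reached a log2 value of 0 in 2 or more libraries entered the test, made with limma 3.58.1 in R 4.3.3, with terms for group and batch, a trend in the variance, and all 15 libraries in 1 fit, so groups share 1 estimate of the spread. P-values were adjusted by Benjamini-Hochberg over all genes tested, with a threshold of 0.05. The fit was tested on simulated data with known changes. Named genes are called members (up to 12 in each direction of a comparison), the 25 members with the smallest F test p, a set of 24 core genes, the 3 smallest p-values where none passed, and members at the lowest value throughout a group and above 0 throughout another; other genes named were chosen after their values were seen. The values of 1 core gene are not reported here. Members, roles and lists were chosen with earlier results of these data known. Alternatives were the batch term, a replicate block, other scalings, no filter, a floor at 0, batch 1 alone, the compared groups alone and leaving out each library. Coordinates are in mm10, which is GRCm38. Of the 96 genes, 94 matched the GENCODE annotation of that build.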

Additional observations from a re-analysis of the deposited data

How the results depend on the processing

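All 274 alternative values of the 21 called differences kept their direction, 174 kept the call, 100 lost it and 0 reversed. Sirt3 in ILCP_WT against ALP_WT kept its call in 13 of 13 alternatives. With the compared groups fitted alone, 0 chromatin regulators were called in EILP_WT against ALP_WT, ILCP_WT against EILP_WT and ILCP_WT against cEILP_WT. In ILCP_WT against ALP_WT 2 were called. Over all genes these fits called 60, 0, 0 and 403, in the same order. Where 0 of all genes were called, the 0 among the chromatin regulators says nothing about them in particular. These fits have fewer libraries to estimate the spread, and the part of this in the lost calls was not tested. In batch 1 alone it was 2 over all 6 groups, 3 in ILCP_WT against EILP_WT, 4 in ILCP_WT against cEILP_WT and 1 in sEILP_WT against ALP_WT. Batch 1 holds a single ALP_WT, ILCP_WT and EILP_KO library, each assumed to vary like the other groups. Of those called there, 1, 1, 2 and 0 are also called with all libraries, and the one in sEILP_WT against ALP_WT is Kmt2a, which is -1.83 in ALP_WT replicate 1. In batch 1 alone the genes called also changed in ILCP_WT against ALP_WT and in EILP_WT against ALP_WT. Sirt3 was lost in EILP_WT against ALP_WT (log2 fold change -0.96). Lost in ILCP_WT against ALP_WT were Chd3os (-2.09), Dnmt1 (-0.85), Ezh2 (-0.98), Kdm7a (2.67) and Setd3 (0.62). Kmt2a came in for both comparisons, and other genes came in for ILCP_WT against ALP_WT. Under cyclic loess the 7 in ILCP_WT against cEILP_WT were 5, without Brd3 and Kdm1a, where 846 of all genes were called. Without the batch term the number of chromatin regulators called was 0 in EILP_WT against ALP_WT, and with values below 0 set to 0 it was 2. Leaving out 1 library at a time, it ranged over 2 to 6 for all 6 groups, 0 to 1 for EILP_KO against EILP_WT, 0 to 0 for EILP_WT against ALP_WT, 2 to 6 for ILCP_WT against EILP_WT, 5 to 8 for ILCP_WT against ALP_WT and 2 to 5 for ILCP_WT against cEILP_WT. The cause was not tested.

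With the replicate number as a block in place of batch, the number called was 0 in EILP_WT against ALP_WT, 3 in ILCP_WT against EILP_WT and 3 in ILCP_WT against cEILP_WT. The numbers do not pair the libraries: same-numbered libraries had correlations of their deviations from the group means between -0.05 and 0.05. Groups of 2 or 3 libraries and an unknown depth limit what a missing call can show.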
